A study of Mus musculus with 12 samples.

Results

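The genes described here encode integrins, the proteins that tie them to the cytoskeleton, and the actin and myosin machinery behind them. Members were taken by gene symbol from the platform annotation, with a rule that reads no measured values but was chosen with earlier results of these data known. By this rule, 61 of the 10225 genes named by the annotation, on 119 of 28704 probes, carried a single symbol of an integrin chain, a focal adhesion protein or a listed actin or myosin gene. They were kept in 3 classes, with 16 integrin receptor genes (32 probes), 16 adaptor and linker genes (35 probes) and 29 genes of actin, myosin and their regulators (52 probes). Integrin alpha V, focal adhesion kinase and integrin-linked kinase, which the symbol rule also covers, matched no probe with a single symbol and were not analysed here.

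The samples were MC3T3-E1 cells, an osteoblast-like clone established from the calvaria of mouse, as confluent monolayers on glass in alpha-MEM. The 6 shear samples had received pulsatile flow at an average of 5 dyn/cm2 and 1 Hz for 5 h in a parallel plate chamber. The 6 control samples stayed static in the same apparatus. Both groups were in medium with 1% serum after growth in 5% serum. Total RNA was hybridised to 2-colour arrays, 2 samples of the same group per array, so each group lies on 3 arrays of its own. The series is a study of 1 line and 1 flow regime, and nothing in the labels says that replicates were separate cultures. The p-values therefore speak of the scatter among these 12 samples, part or all of which may be technical. They also count 12 samples where there were 6 arrays, and so can be too small.

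Integrins are heterodimers of an alpha and a beta chain that bind the extracellular matrix outside the cell. Inside the cell, talin, vinculin, alpha-actinin and filamin connect them to actin filaments at focal adhesions, and paxillin and p130Cas (Bcar1) act as scaffolds for signalling there. In bone cells these adhesions are among the structures known to carry mechanical load from the matrix to the cytoskeleton, and actin dynamics in turn feed the transcription factor SRF through its coactivator MRTF, which binds actin monomers.

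Values are log2 signals relative to the median of a spot's block of the array, so that 0 is that median. A level therefore belongs to 1 probe, and no probe was set against another. Of the 119 member probes, 106 (58 genes) were measured in 4 or more of the 6 samples on either side and were tested, 86 of them with a value in all 12 samples. Of the other 13 probes, 5 had no value in any sample, and the genes Cfl2 (cofilin 2), Myl7 (an atrial myosin light chain) and Vasp had no tested probe. Between 64.2% (control 4) and 82.9% (control 1) of all features had a value in a sample, and between 93 (control 4) and 110 (control 5) of the member probes had one. As a check of the labelled cell type, Alpl, Col1a1, Col1a2 and Dlx5 were tested of 12 listed osteoblast marker genes. Dlx5, a homeobox factor known from osteoblasts, had a log2 change of -0.97 and fell (adjusted p = 0.0479). Col1a2 probe 918 had a control mean of 0.71 and a log2 change of 0.45. Col1a1 probe 11875 had a control mean of 1.65 and a log2 change of -0.25. Col1a2 probe 3699 lay at means of 4.40 in the controls and 4.45 under shear. The means of both probes of Alpl lay below their block median in both groups. In RNA from whole cultures, fewer cells of a type and less RNA per cell cannot be told apart.

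Under shear, 2 member probes rose at an adjusted p under 0.05 (limma with Benjamini-Hochberg adjustment over all 21883 probes) and none fell. They were 1 probe each of Vcl (vinculin) and Flnc (filamin C), both linkers between integrins and actin. That is 1.89% of the member probes, beside 1.42% of all probes tested that rose and 0.201% that fell, so the share called was near the background. Below that threshold more of the members lay on the higher side. At an unadjusted p under 0.05, 31 member probes (29.2%) were higher, beside 11.0% of all probes, and 1 was lower, beside 3.57%. With the dimmest 25% of probes left out the shares were 30.4% of 92 member probes and 12.8% of all. Over the settings tried, with arrays averaged, within a dye, with other scalings or without single samples or arrays, the members' share ranged from 17.0% (cyclic loess) to 39.6% (replicate block), and that of all probes in those 2 settings was 8.65% and 19.6%. These probes share samples and, for 25 genes, a target, and the difference between the shares was not tested.

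The lowest shear value lay above the highest control value in 12 member probes (11.3%), beside 6.26% of all probes, and the reverse held for 1 member, beside 1.68%. The 12 probes were 2 each of Itgb1 and Vcl and 1 each of Itga5, Itga7, Flna, Flnc, Arpc4, Arpc5, Tpm1 and Tpm3. The median log2 change of the member probes was 0.36, with a range from -0.95 to 2.33, and that of all probes 0.10. Centring each sample on the probes measured in every sample moved the median of all probes to -0.02, and cyclic loess also moved it to -0.02, so small changes have no settled sign and are best read against that shift. On the log2 scale 41 member probes lay above 0.5, beside 18.5% of all probes, and 5 below -0.5, beside 9.14%.

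The 3 classes differed in their medians. The 27 tested receptor probes had a median log2 change of 0.17, the 33 adaptor probes 0.39 and the 46 actin probes 0.42. Probes above 0 numbered 16 of 27, 23 of 33 and 34 of 46, beside 60.0% of all probes. Relative to the median of all probes, the receptors lay at 0.07, the adaptors at 0.29 and the actin class at 0.32. With quantile normalization these differences were 0.09, 0.31 and 0.21, and with cyclic loess 0.11, 0.40 and 0.24. That of the receptors had no stable sign: without control 6 the receptor median was 0.06 and its difference -0.06, and without shear 5 and 6 they were 0.04 and -0.06. The difference was also -0.04 without control 5 and 6 and -0.01 with 1 probe per gene, and without control 1 the receptor median was 0.11. The receptor difference was larger without shear 1 and 2 (0.22), in Cy5 samples (0.17) and without the dimmest 25% of probes (0.16). At an unadjusted p under 0.05, 22.2% of receptor, 30.3% of adaptor and 32.6% of actin probes were higher, beside 11.0% of all. The groups did not overlap, with shear higher, in 14.8%, 12.1% and 8.70% of them, beside 6.26% of all. The differences between the classes were not tested.

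The classes could also be read sample by sample, as the median level over the probes with values in all 12 samples. For the 24 such adaptor probes it lay between 1.53 and 1.95 in the controls and between 2.16 and 2.70 under shear, so the groups stood apart. For the 41 actin probes it lay between 2.31 and 2.86 in the controls and between 2.86 and 3.08 under shear, and control 5 and shear 2 met at 2.86. For the 21 receptor probes it lay between 0.60 and 1.31 in the controls and between 0.46 and 1.25 under shear, and the groups overlapped. Shear 2 was the lowest shear sample for the receptors and the actin class, and shear 5 for the adaptors.

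**Figure D1:**
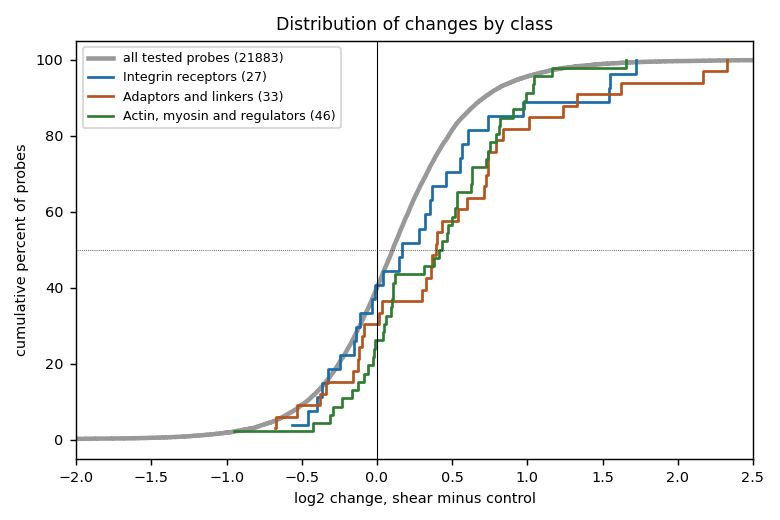
Cumulative percent of probes (y axis) against the log2 change, shear minus control (x axis), for all 21883 tested probes and for the 3 classes of members. The receptor curve runs near that of all probes below 0, while the adaptor and actin curves, with medians of 0.39 and 0.42, lie to the right over most of their length.

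**Figure D2:**
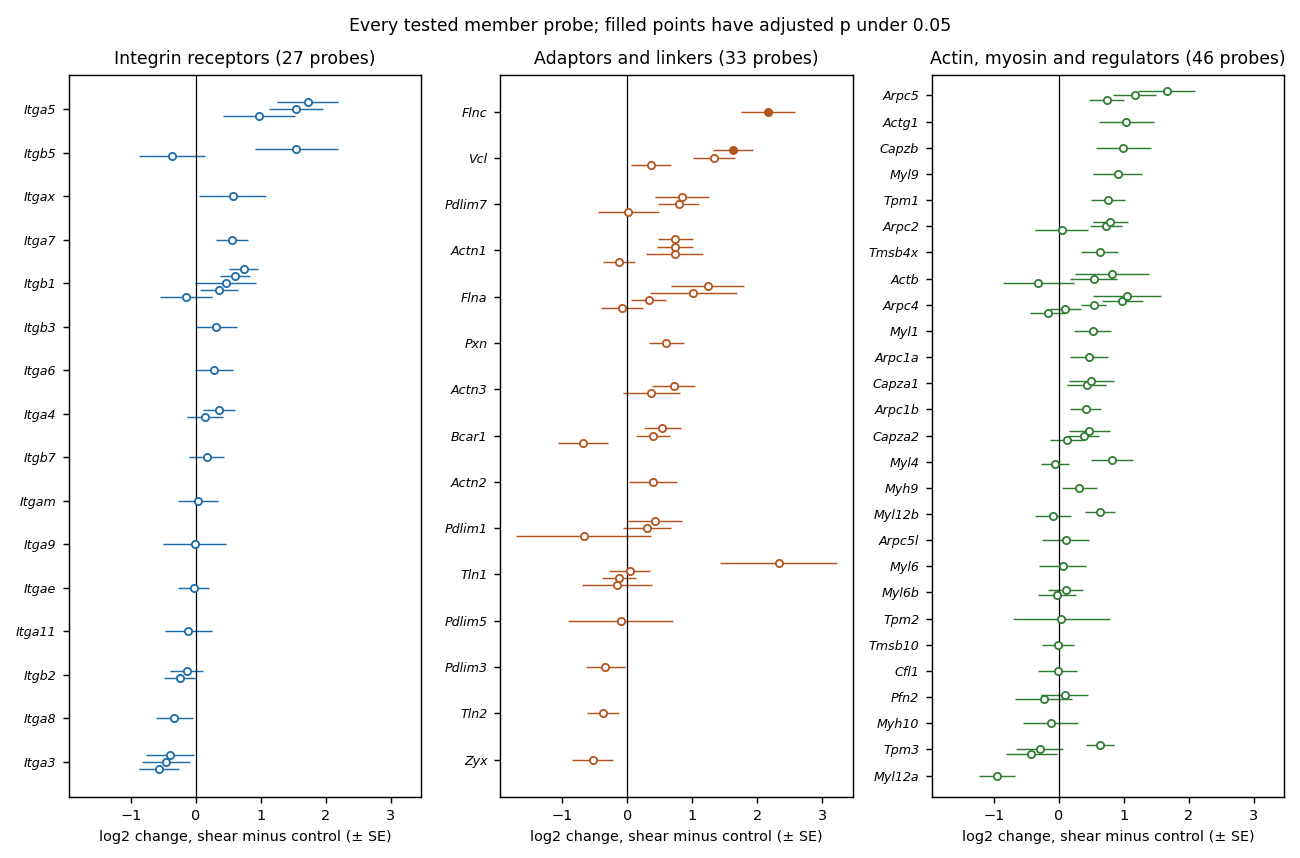
Log2 change, shear minus control (x axis), with its moderated standard error (SE, bars), for each of the 106 tested member probes, by gene within the 3 classes. Filled points, 1 of Vcl and 1 of Flnc, have an adjusted p under 0.05, and the probes of genes such as Itgb5, Tln1 and Bcar1 lie on both sides of 0.

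Among the receptors, Itga5 had the probe with the largest change. It encodes integrin alpha 5, which pairs with beta 1 as the main fibronectin receptor. Probe 19185 ranged from -0.40 through a median of 0.47 to 1.33 in the controls, and from 1.13 through 2.01 to 2.87 under shear. The groups overlapped by 1 shear sample, shear 2, which lay below the highest control. The log2 change was 1.54 ± 0.42 (SE, n = 6 per group), or 2.91-fold, with adjusted p = 0.0836 (limma, Benjamini-Hochberg).

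Probe 12081 of Itga5 had values in 4 controls, from -0.84 through -0.63 to -0.32, and in all 6 shear samples, from 0.02 through 1.26 to 1.74. Every shear sample lay above every measured control, and the log2 change was 1.72 ± 0.47 (SE) with adjusted p = 0.0933. The last probe, 24118, gave 0.97 ± 0.56. Without shear 2, the lowest shear sample in both probes, 19185 and 12081 passed at log2 changes of 1.72 and 1.93, and they also passed without shear 1 and 2 at 1.85 and 2.03. With all samples Itga5 missed the threshold, and over the alternatives the adjusted p of probe 19185 ran from 0.00835 to 0.357.

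Itgb1 encodes integrin beta 1, the common partner of many alpha chains. Its probe 10170 ranged from 3.14 through 3.27 to 3.51 in the controls and from 3.76 through 4.08 to 4.25 under shear. Probe 17609 ranged from 2.67 through 2.82 to 2.99 in the controls and from 3.04 through 3.46 to 3.84 under shear. Neither probe's groups overlapped. Their log2 changes were 0.74 ± 0.23 (SE) and 0.60 ± 0.24, with adjusted p = 0.124 and 0.245 (limma, Benjamini-Hochberg), so neither passed. The other 3 probes of Itgb1 gave 0.46, 0.35 and -0.15, and the gene's probes do not share a sign.

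For Itgb5, whose product forms a vitronectin receptor with alpha V, the 2 probes disagreed. Probe 14576 had values in 4 controls, at -0.13 and -0.55 in controls 1 and 2 and at 2.82 and 2.75 in controls 5 and 6, and from 2.43 through 2.75 to 3.10 under shear. Its controls fell apart by array, and those of 1 array lay among the shear samples. The log2 change of 1.55 ± 0.64 (SE) did not pass (adjusted p = 0.286), and probe 6030 gave -0.36.

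The remaining receptors lay closer to 0. Itga7, the alpha 7 chain of a laminin receptor known from muscle, gave 0.55 ± 0.25 (SE) with groups that did not overlap, from -0.16 to 0.19 in the controls and from 0.22 to 0.82 under shear, and adjusted p = 0.318. The 3 probes of Itga3, a chain of a laminin receptor, lay below 0 together, at -0.57, -0.46 and -0.40. Itgb3, the partner of alpha V in another vitronectin receptor, was at 0.32 ± 0.32, Itga11, a collagen receptor chain, at -0.12 ± 0.36, and Itga8 at -0.33 ± 0.29. Of the 5 alpha chain and beta chain genes known from leukocytes (Itgae, Itgam, Itgax, Itgb2 and Itgb7), 6 probes were tested, with a median of 0.00 and a range from -0.25 to 0.57, and none passed. By chain, the 16 alpha probes had a median of 0.09 and the 11 beta probes 0.32.

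Among the linkers lay both probes that passed. Vinculin binds talin and actin and is known to be recruited to adhesions under tension. Vcl probe 12862 ranged from 0.80 through 1.15 to 1.86 in the controls and from 2.36 through 2.84 to 3.58 under shear. The groups stood clear of each other, with means of 1.28 ± 0.39 (SD) and 2.90 ± 0.44. Its level rose by 1.62 ± 0.31 (SE, n = 6 per group) on the log2 scale, or 3.08-fold, with adjusted p = 0.0192 (limma, Benjamini-Hochberg).

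A second probe of Vcl, 16477, ranged from 1.76 through 2.07 to 2.34 in the controls and from 2.96 through 3.40 to 3.71 under shear. Its groups did not overlap either, and its change of 1.33 ± 0.32 (SE) missed the threshold at adjusted p = 0.0569. It passed without control 6 (1.41), its highest control, and without shear 2 (1.44), its lowest shear sample. Over the alternatives its adjusted p ran from 5.36e-04 to 0.1955 (limma, Benjamini-Hochberg). The third probe of Vcl, 16437, behaved differently, from 0.58 through 1.07 to 1.65 in the controls and from 1.18 through 1.44 to 1.75 under shear. These groups overlapped, and the change was 0.36 ± 0.31 (adjusted p = 0.648). Averaged over its 3 probes, a choice made after the data were seen, Vcl rose by 1.10 ± 0.26 (SE) with adjusted p = 0.0388.

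Flnc encodes filamin C, the actin crosslinker best known from striated muscle, and was measured by 1 probe, 24908. It ranged from 1.44 through 2.26 to 2.64 in the controls and from 3.55 through 4.23 to 5.33 under shear. All 6 shear samples lay above all 6 controls, and shear 3 and 4, which were taken to share an array, were the highest. The means were 2.16 ± 0.43 (SD) and 4.33 ± 0.66. The level rose by 2.17 ± 0.42 (SE, n = 6 per group), or 4.49-fold, with adjusted p = 0.0200 (limma, Benjamini-Hochberg).

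**Figure D3:**
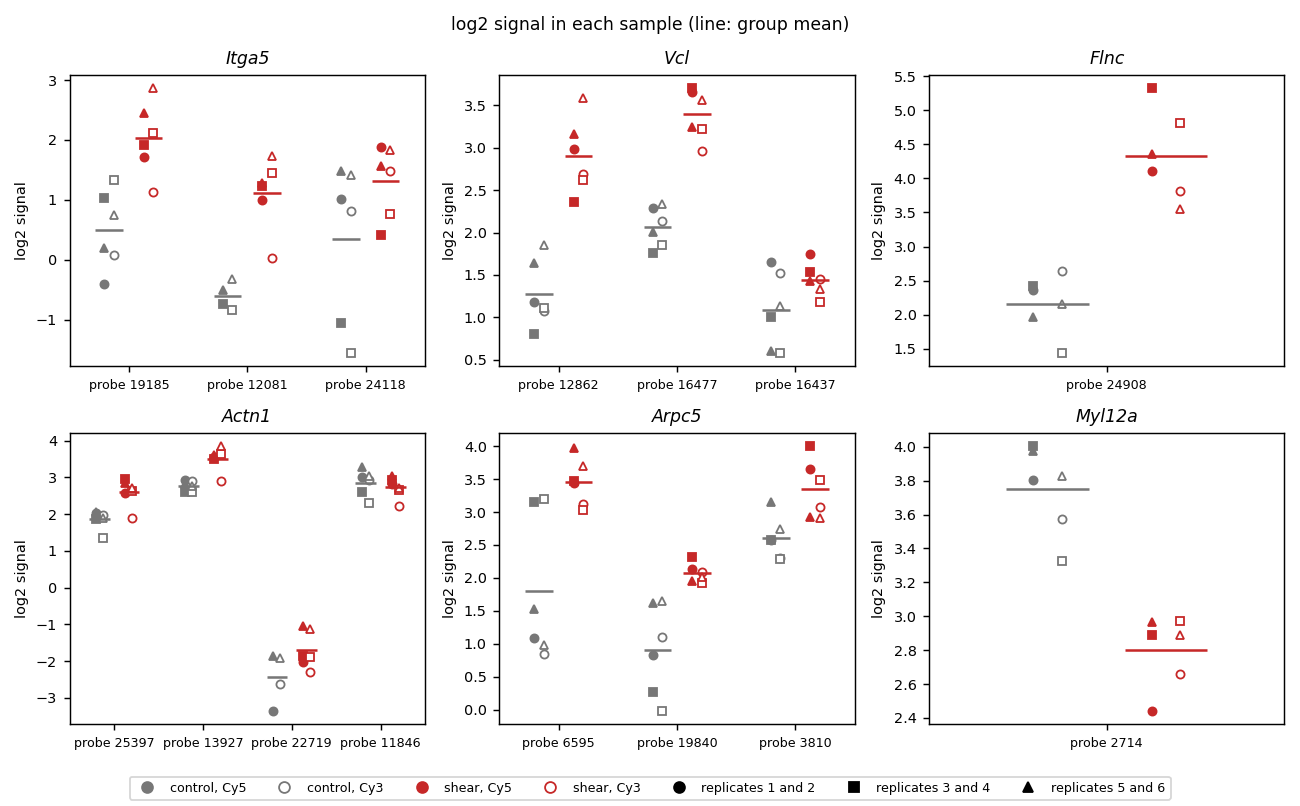
Log2 signal (y axes, a scale for each panel) in each control and shear sample for every tested probe of 6 member genes, with lines at group means, filled points for Cy5, open points for Cy3 and a shape for each replicate pair of an array. The shear samples lie above the controls in Vcl probes 12862 and 16477 and in Flnc, and below them in Myl12a, while the groups overlap in Vcl probe 16437 and in all 4 probes of Actn1.

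Both calls kept their direction in every alternative run but rested on few arrays. Without any single sample both stayed past the threshold. With each array averaged to 1 value, Flnc passed and Vcl probe 12862 did not (adjusted p = 0.0437 and 0.0746, limma, Benjamini-Hochberg), so 1 member was called there, beside 0.448% of all probes that rose. Within Cy5 samples the changes were 2.35 for Flnc, which passed, and 1.63 for Vcl, which did not. Within Cy3 samples they were 1.98 and 1.62, and neither passed. Leaving out the array of shear 1 and 2, 3 and 4, or 5 and 6 ended the call of Flnc, with changes of 2.35, 1.80 and 2.36. Leaving out control 1 and 2, control 3 and 4, or shear 5 and 6 ended that of Vcl probe 12862, with changes of 1.55, 1.46 and 1.39, and so did quantile normalization, at 1.47. Over the alternatives the adjusted p ran from 9.86e-04 to 0.149 for Vcl and from 5.26e-04 to 0.129 for Flnc.

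**Figure D4:**
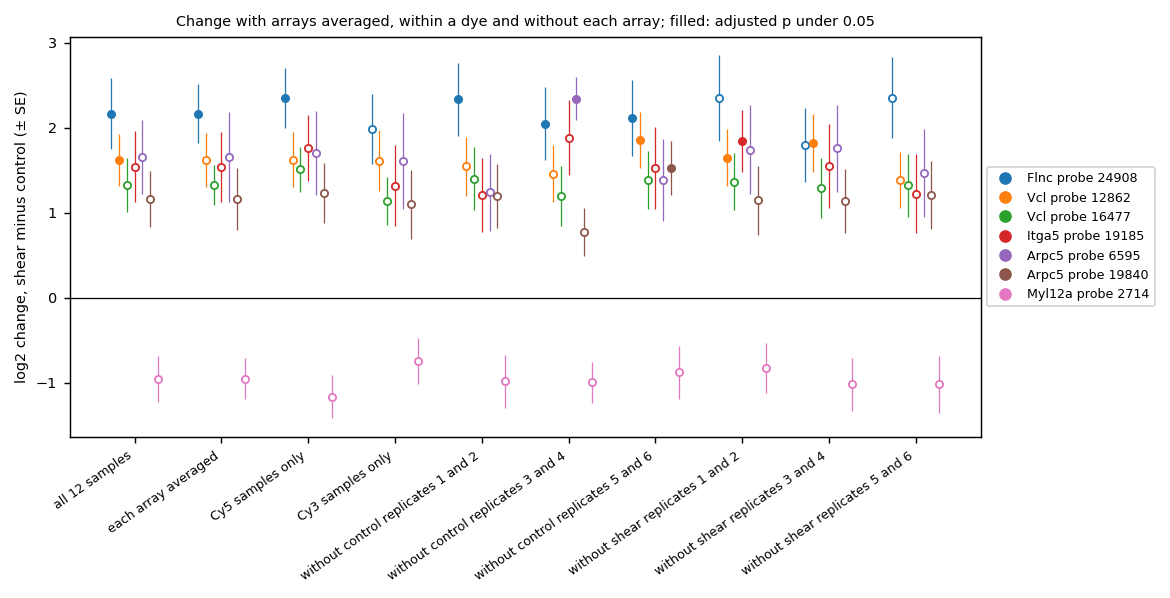
Log2 change, shear minus control, with its SE (y axis), for 7 member probes with all samples, with each array averaged, within each dye and without each array (x axis). Points are filled where the adjusted p is under 0.05: every change keeps its sign, while the filled points of Flnc and Vcl come and go with the array left out.

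The bases before the start of these 2 genes, and of Itga5 and Arpc5, which came next by p, are shown so that the sites of SRF and of TEAD, the DNA-binding partner of YAP, can be looked for. They are the 250 bases upstream of the RefSeq transcript start on GRCm38.p6, written 5′ to 3′ on the gene's strand, with capitals for the CArG box bound by SRF and for GGAATG, a core motif of TEAD. Vcl lies at chr14:20929148-20929397 on the plus strand, Flnc (the first of its 2 starts) at chr6:29432903-29433152 on the plus strand, Itga5 at chr15:103366792-103367041 on the minus strand and Arpc5 at chr1:152766292-152766541 on the plus strand.
Vcl: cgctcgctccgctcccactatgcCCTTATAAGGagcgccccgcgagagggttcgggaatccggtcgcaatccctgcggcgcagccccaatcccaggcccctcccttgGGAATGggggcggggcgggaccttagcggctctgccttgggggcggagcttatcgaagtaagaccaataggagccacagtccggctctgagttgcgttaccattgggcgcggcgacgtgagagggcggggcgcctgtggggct
Flnc: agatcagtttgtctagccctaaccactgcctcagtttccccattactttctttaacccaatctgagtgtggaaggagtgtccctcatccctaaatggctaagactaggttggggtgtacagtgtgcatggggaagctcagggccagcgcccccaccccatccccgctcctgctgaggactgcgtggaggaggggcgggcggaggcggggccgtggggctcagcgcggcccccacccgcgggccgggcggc
Itga5: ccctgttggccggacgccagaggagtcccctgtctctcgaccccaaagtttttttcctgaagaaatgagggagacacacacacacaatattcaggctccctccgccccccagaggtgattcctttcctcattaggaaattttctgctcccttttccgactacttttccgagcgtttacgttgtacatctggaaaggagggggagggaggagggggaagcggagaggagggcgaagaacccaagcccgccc
Arpc5: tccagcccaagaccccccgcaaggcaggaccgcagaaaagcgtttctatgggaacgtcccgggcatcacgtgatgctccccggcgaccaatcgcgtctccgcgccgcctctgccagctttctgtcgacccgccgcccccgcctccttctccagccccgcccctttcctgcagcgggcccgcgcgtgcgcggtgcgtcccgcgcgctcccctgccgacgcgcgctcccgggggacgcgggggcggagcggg

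In Vcl the CArG box CCTTATAAGG lies from -227 to -218 and GGAATG from -143 to -138, counted from the transcript start. The windows of Itga5 and Arpc5 and the one shown for Flnc hold neither, while the window of the second start of Flnc holds GGAATG on the other strand, from -104 to -99. Both strands were searched, and 51 of the 61 member genes had an entry. A CArG box was found in 6 of these 51 (11.8%), namely Vcl, Actg1, Arpc4, Myl6, Myl7 and Myl9, beside 1.62% of 27025 genes. GGAATG was found in 10 of 51 (19.6%, beside 14.4%), and the AP-1 motif TGANTCA in 4 of 51 (7.84%, beside 7.82%). The 5 tested genes with a CArG box did not move alike: beside Vcl, the log2 changes were 1.04 ± 0.43 (SE) for Actg1 (gamma actin), 0.90 ± 0.38 for Myl9 (a regulatory light chain of smooth muscle and non-muscle myosin), 0.06 ± 0.36 for Myl6 (an essential light chain) and from -0.17 to 1.05 over the 5 probes of Arpc4, none of which passed. The Arpc4 probe at 1.05 was dim and had values in 4 controls and 5 shear samples. A match describes these letters only.

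The other linkers did not pass. Actn1, non-muscle alpha-actinin, crosslinks actin filaments and binds integrin tails. Probe 25397 ranged from 1.34 through 1.93 to 2.05 in the controls and from 1.90 through 2.67 to 2.95 under shear. Only the lowest shear sample, shear 2, lay within the control range, and the change was 0.74 ± 0.26 (SE, adjusted p = 0.192). Probe 13927 ranged from 2.59 through 2.80 to 2.92 in the controls and from 2.91 through 3.58 to 3.85 under shear, where again shear 2 alone reached into the control range, with a change of 0.74 ± 0.28 (adjusted p = 0.217). The other 2 probes of Actn1 gave 0.73 ± 0.44 and -0.12. The former was dim, with a median net fluorescence of 79.5 in 4 controls and 198.5 under shear.

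Tln1 encodes talin, which activates integrins by binding their beta tails. Its probe 26943, singled out after its values were seen, had the largest change of any member at 2.33 ± 0.90 (SE), and did not pass (adjusted p = 0.234). The change rested on 1 array: shear 1 and 2 lay at 3.86 and 4.39, the other shear samples from -0.76 to -0.24, and the controls from -2.42 to -0.73. The other 3 probes of Tln1 gave -0.16, -0.12 and 0.04, and Tln2 gave -0.38 ± 0.24. The 4 tested probes of Flna, the widespread filamin A, ranged from -0.09 to 1.24, the highest of them with values in 5 controls and 4 shear samples and groups that did not overlap. The muscle alpha-actinins Actn2 (0.39) and Actn3 (0.71 and 0.37) did not pass. Over the 20 linker probes the median was 0.55, with 15 above 0.

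Scaffolds and actin-side proteins of the adhesion gave mixed signs. Pxn, paxillin, was at 0.60 ± 0.27 (SE). For Bcar1, the Src substrate p130Cas, 2 probes lay above 0 and 1 below. Probe 10305 ranged from -0.20 through 0.23 to 0.50 in the controls and from 0.42 through 0.73 to 1.14 under shear, with a change of 0.54 ± 0.29. Probe 20830 ranged from -0.25 through 0.18 to 0.38 and from 0.00 through 0.56 to 0.75, with a change of 0.40 ± 0.26. Probe 6858, a dim one with a median net fluorescence of 117 in 5 controls and 69 in the shear samples, ranged from -2.97 through -2.10 to -1.66 and from -3.66 through -3.02 to -2.33, with a change of -0.68 ± 0.38. The groups overlapped in all 3 probes. Zyx, zyxin, a LIM protein of adhesions and stress fibres, was at -0.53 ± 0.31. The PDZ and LIM protein Pdlim7 gave 0.84, 0.79 and 0.02, and Pdlim1 0.43, 0.30 and -0.67. The Pdlim7 probe at 0.79 and the Pdlim1 probe at 0.30 were dim. Their median net fluorescence was 174 and 110 in the controls and 250 and 170 under shear. Probes 20896 of Pdlim1 (-0.67 ± 1.03) and 3853 of Pdlim7 (0.84 ± 0.42), singled out after their values were seen, split by array. Shear 5 and 6 lay at -1.95 and -1.87 in the former, and the other shear samples from 2.22 to 3.20. In the latter they lay at 0.76 and 0.60, and the others from 2.06 to 2.58. The 9 probes of the LIM and PDZ group had a median of 0.02, and none passed.

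In the actin class the Arp2/3 complex, which starts branched actin filaments, had 13 of its 14 tested probes above 0, beside 60.0% of all probes. The median log2 change over these probes of 6 subunit genes was 0.63. Of the 14, 7 had an unadjusted p under 0.05 and were higher, beside 11.0% of all probes, and none passed adjustment. Arpc5, a small subunit of the complex, had 3 tested probes above 0. Probe 6595 ranged from 0.85 through 1.30 to 3.19 in the controls and from 3.03 through 3.46 to 3.97 under shear. The 2 controls that reached the shear range were controls 3 and 4, at 3.15 and 3.19, of 1 array. The change was 1.66 ± 0.44 (SE, adjusted p = 0.0755, limma, Benjamini-Hochberg). It passed without control 4 (1.79) and without controls 3 and 4 (2.35). Both leave out controls that reached the shear range, so these passes lend the change no support. With each array averaged the adjusted p was 0.210, and over the alternatives it ran from 0.00148 to 0.352 (limma, Benjamini-Hochberg).

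Probe 19840 of Arpc5 ranged from -0.02 through 0.97 to 1.65 in the controls and from 1.93 through 2.06 to 2.32 under shear. Its groups did not overlap, with controls 3 and 4 now the lowest. The change was 1.17 ± 0.33 (adjusted p = 0.0973), and it passed without controls 5 and 6 (1.53), the highest controls. Over the alternatives its adjusted p ran from 0.0152 to 0.371 (limma, Benjamini-Hochberg). The last tested probe, 3810, gave 0.74 ± 0.27. Averaged over these 3 probes, a choice made after the data were seen, Arpc5 rose by 1.19 ± 0.21 (SE) with adjusted p = 0.00991 (limma, Benjamini-Hochberg), the smallest of any member gene in that fit. Beside it, Flnc and Vcl were the only other members past the threshold, and 1.82% of all genes and unnamed probes rose there.

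Of the other subunits, Arpc4 probe 7012 ranged from -0.14 through 0.58 to 1.11 in the controls and from 0.73 through 1.51 to 1.95 under shear, with a change of 0.98 ± 0.32 (adjusted p = 0.150). Probe 5416 of Arpc4 gave 0.53 ± 0.19 with groups that did not overlap. Its other probes gave 1.05, 0.10 and -0.17. The probe at 1.05 was dim, with a median net fluorescence of 81 in 4 controls and 263 in 5 shear samples. Arpc2 probe 7738 ranged from 1.94 through 2.19 to 2.76 in the controls and from 2.67 through 3.07 to 3.29 under shear, with a change of 0.73 ± 0.24 (adjusted p = 0.159). The other probes of Arpc2 gave 0.79 and 0.05. The single probes of Arpc1a, Arpc1b and Arpc5l lay at 0.47, 0.41 and 0.11.

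For the actins themselves the probes disagreed. Actb, beta actin, is often used as a reference gene. Its probe 10363 ranged from 4.58 through 4.92 to 5.78 in the controls and from 4.86 through 5.62 to 6.15 under shear, a change of 0.53 ± 0.36 (SE, adjusted p = 0.538). Probe 12679 ranged from 1.17 through 2.51 to 3.50 in the controls and from 1.83 through 3.42 to 4.20 under shear, a change of 0.82 ± 0.57. Probe 17463 ranged from 3.41 through 4.52 to 4.78 in the controls and from 1.94 through 4.24 to 5.17 under shear, a change of -0.31 ± 0.54 that turned to 0.35 without shear 1 and 2. The annotation gives probes 12679 and 17463 the same sequence record, yet their changes had opposite signs. The groups overlapped in all 3 probes. Actg1 ranged from 3.50 through 5.06 to 5.43 in the controls and from 4.99 through 5.75 to 6.39 under shear. The changes of Actb and Actg1, near-identical paralogs, are uncertain as to which of them a probe binds, as are those of Myl12a and Myl12b, and this was not tested.

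Myl12a, a regulatory light chain of non-muscle myosin II, was the member with the lowest change. Its probe ranged from 3.33 through 3.82 to 4.01 in the controls and from 2.44 through 2.89 to 2.97 under shear. All 6 shear samples lay below all 6 controls. The change was -0.95 ± 0.27 (SE, n = 6 per group), a ratio of shear to control of 0.517, with adjusted p = 0.101 (limma, Benjamini-Hochberg). It passed with samples centred on the probes measured in all of them (-1.09), with cyclic loess (-1.18) and without control 4 (-1.05), the lowest control. Over the alternatives its adjusted p ran from 0.00249 to 0.371 (limma, Benjamini-Hochberg). Its paralog Myl12b gave 0.63 ± 0.23 and -0.09 ± 0.28 on 2 probes. The 10 probes of myosin light chains had a median of 0.09, and the non-muscle heavy chains Myh9 and Myh10 lay at 0.31 ± 0.27 and -0.12 ± 0.42.

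Tpm1, a tropomyosin that coats actin filaments, was higher in every shear sample, from 4.46 through 4.72 to 4.85 in the controls and from 5.18 through 5.46 to 5.66 under shear. The change of 0.75 ± 0.26 (SE) did not pass (adjusted p = 0.181). Tpm3 had 1 probe whose groups did not overlap (0.63 ± 0.22) and 2 at -0.43 and -0.30, and Tpm2 was at 0.04. The Tpm3 probes at 0.63 and -0.43 have the same sequence record in the annotation. Among genes of actin turnover, the severing factor Cfl1 (cofilin) was at -0.02 ± 0.30 and the monomer-binding thymosins Tmsb10 and Tmsb4x at -0.01 ± 0.25 and 0.63 ± 0.28. The capping protein genes Capza1, Capza2 and Capzb lay between 0.12 and 0.99, all 6 tested probes above 0 and none past the threshold. The 2 tested probes of Pfn2, a profilin, gave 0.09 and -0.23.

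Probes of 1 gene often differed. Of the 25 member genes with several tested probes, 11 had all of them on 1 side of 0 (9 above, and Itga3 and Itgb2 below), and 14 had probes on both sides. The median spread between a gene's lowest and highest probe was 0.864 on the log2 scale, and it exceeded 1 in 9 genes. For the 33 genes with 1 tested probe, Flnc, Myl12a, Tpm1, Actg1 and Pxn among them, no second probe bears on the change.

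Genes around these members were read from lists that share no gene with them and were fixed with earlier results of these data known. Of 56 probes (26 genes) of integrin activators and adaptor partners, 1 (1.79%) rose and none fell, with a median of 0.03. Of all probes 1.42% rose, with a median of 0.10, so the share called in this list was near the background. The probe that rose was of Tns3, tensin 3, which links integrin tails to actin, at 1.54 ± 0.33 (SE, adjusted p = 0.0348, limma, Benjamini-Hochberg). The 2 probes of Fermt2 (kindlin 2, an integrin activator) with the smallest p gave 1.22 each (adjusted p = 0.0695 and 0.0811), and Tns2 gave -1.28. Of 24 probes (9 genes) of matrix ligands, 1 rose (4.17%, beside 1.42% of all probes) and none fell, with a median of 0.44. This was a probe of Tnc, tenascin C, a matrix protein bound by several integrins, which rose by 2.39 ± 0.39 (adjusted p = 0.00730), and its other probes gave 1.49 and 1.28. Lamc1, a laminin chain, was at 1.19.

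None of 83 probes (38 genes) of other actin assembly and severing factors passed, with a median of 0.17 beside 0.10 for all probes. At an unadjusted p under 0.05, 18 (21.7%) were higher and 1 lower, beside 11.0% and 3.57% of all probes. Wdr1, a cofilin cofactor, was at 1.53, Tagln2 at 1.31, the Arp2/3 subunit Actr3 at 0.94 and the monomer-binding Twf1 at 0.90. A further list held 14 probes of SRF and 6 of its other known targets or partners, Ccn1, Csrp2, Fhl1, Fhl2, Fos and Mcl1. The median of these probes was 0.94. Of the 14, 3 rose (21.4%, beside 1.42% of all probes) and none fell. These were Ccn1, a matricellular protein, at 2.47 ± 0.48 (adjusted p = 0.0199), Csrp2, an actin-binding LIM protein, at 1.38 ± 0.31 (adjusted p = 0.0420) and Mcl1 at 1.02 ± 0.24 (adjusted p = 0.0493).

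Since several members are also known from other cell types, their markers were read too. Of 6 tested muscle probes (6 genes) none passed, with a median change of -0.13. The mean level of the 4 with all values lay between 1.54 and 2.41 in the controls and between 1.71 and 2.30 under shear. That mean includes Tnnt2, at group means of 5.99 and 5.89. The 8 probes of member isoforms known mainly from muscle, Flnc among them, had a median of 0.46, beside 0.10 for all probes, and the call of Flnc was the only one among them. None of the 10 macrophage and leukocyte probes (6 genes) passed, with a median change of 0.10. The mean level over the 6 of them with all values lay between -0.34 and 0.46 in the controls and between -0.10 and 0.64 under shear. Of the 10, Laptm5 probe 22970 had the smallest p. Its change was 0.91 ± 0.26 (SE, adjusted p = 0.115, limma, Benjamini-Hochberg), with values in 6 controls and 4 shear samples. None of the 5 platelet and megakaryocyte probes or of the 9 endothelial probes passed either, with medians of -0.26 and 0.31. Their part in the members' values was not tested.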

How the data were processed

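The deposited file holds log2 values, 1 per probe and sample, made by the authors. Judged from the values, each divides a net fluorescence in whole units by the median of its block of 598 features before the log2, since 100% came out whole within 0.002. Scanner, background correction and the rule that emptied some spots: not given in the sources used here. Per the labels, odd replicates carried Cy5 and even ones Cy3; which replicates shared an array (1 and 2, 3 and 4, 5 and 6) was inferred from the series' design. Within such a pair Pearson correlations over probes were 0.954 to 0.981, and between pairs of a group 0.873 to 0.915. The number of arrays limits the precision.

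Each sample was centred on its median. Every probe measured in 4 or more of the 6 samples on either side was fitted with limma 3.58.1 in R 4.3.3. Group and dye were fixed terms, and the array was a random block (correlation 0.727). P-values were adjusted with Benjamini-Hochberg over 21883 probes, threshold 0.05. SE is the moderated standard error. The fit was also run on data simulated under its own model with known changes, a run that cannot test the assumptions of that model. Tables used Python 3.11.15, pandas 2.3.3 and numpy 2.4.6, and figures matplotlib 3.10.9. Of 28704 probes, 18511 had 1 symbol, 937 several and 9256 none, and all 119 member probes matched their gene by Entrez number.

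Sample values were given for called members, the 5 smallest p of each class, Actb, and genes with probes beyond 0.5 in both directions, and from each list for called probes and the 4 smallest p. Members, lists and tests were chosen with earlier results of these data known. Alternatives changed the array, dye and replicate terms, scaling, filters and probe choice, and left out each sample and array. Averaging a gene's complete probes, and reading the share at an unadjusted p in each setting, were added after the data were seen. The result of 1 companion list is not reported here.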

Additional observations from a re-analysis of the deposited data

Results flagged for a closer look

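Of 48 groups of samples, those of the probes described in full and of the class medians, 3 held a sample far from the rest, where chance gives about 1 in 20. For Actn1 probe 25397, control 4 was the lowest control at 1.34, with the next at 1.86, a gap of 0.737 of the group's range. Shear 2 was the lowest shear sample at 1.90, with the next at 2.58, a gap of 0.650 of the range. The median over the receptor probes with all values was lowest in shear 2 as well, at 0.46 with the next at 1.03, a gap of 0.719 of the range.

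Outside the comparison, Flna probe 28001 had a value in 2 of 6 shear samples, with a mean log2 signal of -3.43, and in no control. That lies below the samples' 5th percentiles of -2.87 to -2.18.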

How the results depend on the processing

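The 354 calls over all probes (310 higher, 44 lower) became 274 higher and 132 lower with centring on the probes measured in all samples, and 287 and 123 with cyclic loess. They numbered 106 with each array averaged, 558 without the dye term, 60 in Cy5 and 20 in Cy3 samples, 235 with quantile normalization, 232 with 1 probe per gene, and 2664 without the array block. Without single samples they ranged from 180 (control 3) to 368 (control 4), and were 203, 180 and 231 without control 1, 3 or 6 and 193, 201 and 200 without shear 1, 3 or 6. Without arrays they were 211 (control 1 and 2), 172 (control 5 and 6), 210 (shear 1 and 2), 76 (shear 3 and 4) and 105 (shear 5 and 6).

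The 2 member calls became 1 with each array averaged, in Cy5 samples, with quantile normalization and with 1 probe per gene, 0 in Cy3 samples, 5 without the dye term and 23 without the array block. Without single samples they ranged from 2 to 5 (without shear 2). They were 1 without control 1 and 2 or shear 3 and 4, and 0 without shear 5 and 6. The counts of 0 come from limma, with 19 member probes higher at an unadjusted p under 0.05 in each. That is 17.9% of members beside 8.37% of all probes in Cy3 samples, and 18.4% beside 8.67% without shear 5 and 6. The median of the actin class moved to 0.23 with cyclic loess. Of 619 values of the 21 probes described in full, 568 kept their direction and side of the threshold, 39 newly passed, 11 no longer passed and 1 changed sign, that of Actb probe 17463, at 0.35 without shear 1 and 2. The cause of these changes was not tested.

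With the replicate number as a block in place of dye and array, 21 member probes and 2240 of all probes passed. Same-numbered samples deviated from their group means with correlations of -0.09 to 0.12, and 1 of 6 controls correlated best with its own number. Each array holds samples of 1 group only, so this check cannot decide whether same-numbered samples share more than a number. Leaving out an array leaves 2 in its group. Signal near the lowest values limits the 14 tested members in the dimmest 25% of probes.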

Other observations

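Of the member probes outside the test, those with the most values were Capza1 probe 13434, with means of 0.10 in 2 controls and 1.00 in 4 shear samples (0.83 to 1.34), Itgax probe 5222, with means of -3.29 in 2 controls and -3.45 in 4 shear samples, and Arpc5 probe 26754, with means of -3.02 and -2.92 in 3 samples of each group. Myl7 had values in 2 controls (mean -2.54) and 3 shear samples (mean -1.91), and Cfl2 in 1 control (-3.04) and 2 shear samples (mean -2.16). Itga6 probe 15866 and Capzb probe 17685 had values in 2 controls and in no shear sample, with means of -0.09 and -0.92. Pfn2 probe 17962, Itga4 probe 12007, Itga9 probe 24625, Itgae probe 265 and the probe of Vasp had no value in any sample.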
